A study of Rattus norvegicus with 8 samples.

Results

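Mitosis and the G2 phase before it are run by a set of genes that are switched on together when a cell prepares to divide, and 36 of these genes were followed in the rat lung's alveolar type II (ATII) cells, which line the air sacs and make surfactant. Members were chosen by name, with earlier results of these data known, so their counts are not an independent test. A member was measured where the platform annotation gave a probe set its symbol and no other, and this held for 32 of the 36, among 18166 genes tested. Nek2, Cenpe, Birc5 and Anln were not analysed here. Where a gene had several probe sets (Ccnb2 among the members), the brightest on average over the 8 arrays was used.

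The wells fell into 2 groups of 4. Both were freshly isolated cells of male Sprague Dawley rats, whose age the labels do not state, and both carried an adenovirus, given over 3 h at 20 infectious units per cell (multiplicity of infection). AdGFP wells, the controls, received a virus for green fluorescent protein, and AdHIF1a wells one for a constitutively active mutant of HIF1a, which is the part of the transcription factor HIF-1 that oxygen normally destabilises. The share of cells that took up virus is not stated, and no well without virus was analysed here. Cells were plated on 80% rat tail collagen and 20% Matrigel in 5% rat serum and lysed 24 h later. The labels also give 2% fetal bovine serum for every well. Each of 4 rats gave 1 well per virus on its own extraction day, so rat and day cannot be told apart. All differences are AdHIF1a minus AdGFP within a rat, in log2 units, with a standard error (SE) from the paired limma fit over 4 rats. Calls needed a p under 0.05 after Benjamini-Hochberg adjustment across the 18166 genes. Targets of HIF1a, chosen after their values were seen, were higher in AdHIF1a, Car9 by 3.21 ± 0.19, Pdk1 by 1.98 ± 0.09 and Vegfa by 1.52 ± 0.13 (limma adjusted p = 4.02e-05 to 0.000483). The rat Hif1a probe set read 0.48 ± 0.08 lower, and whether it detects the viral transcript is not stated.

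In a dividing cell, cyclin A and cyclin B activate the kinase Cdk1, which starts mitosis together with the Polo and Aurora kinases. Motor proteins and microtubule-binding proteins then build the spindle, kinetochores attach chromosomes to it, and a checkpoint holds back the anaphase-promoting complex (APC/C) until all are attached. Most of these genes are kept silent in resting cells and activated in G2 through promoter elements, the CCAAT box bound by NF-Y and the cell cycle genes homology region (CHR) bound by DREAM and MuvB complexes. ATII cells divide little in the healthy lung and serve as progenitors of the alveolar epithelium after injury.

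Promoters of 6 members are shown because genes of this kind are known for these elements; they were picked from the 10 members with a CHR match in the window before the start, and so do not stand for all members. RefSeq promoter windows (rat assembly GRCr8) were matched by symbol for 26 of the 32 measured members, and Foxm1, Ccna2, Tpx2, Ube2c, Aurkb and Racgap1 were not matched. Printed are the 150 bases before the annotated start of 4 members called lower and, last, of 2 that were not called (Prc1 and Cenpa), 5′ to 3′ on the gene's strand. Capitals mark the CHR letters TTTGAA and the CCAAT box letters CCAAT, each on either strand.
Cdk1 (chr20:19265143-19265292, plus strand): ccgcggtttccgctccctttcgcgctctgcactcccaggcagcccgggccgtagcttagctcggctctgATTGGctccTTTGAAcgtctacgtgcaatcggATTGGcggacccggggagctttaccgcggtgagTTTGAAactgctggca
Mki67 (chr1:199952594-199952743, minus strand): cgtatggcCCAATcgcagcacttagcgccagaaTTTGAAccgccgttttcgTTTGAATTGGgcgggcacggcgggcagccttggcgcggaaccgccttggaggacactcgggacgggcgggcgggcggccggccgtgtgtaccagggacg
Top2a (chr10:84473094-84473243, minus strand): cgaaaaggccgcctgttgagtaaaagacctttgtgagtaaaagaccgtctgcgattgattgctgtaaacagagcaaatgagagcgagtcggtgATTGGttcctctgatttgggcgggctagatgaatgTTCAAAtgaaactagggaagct
Cdc20 (chr5:137255800-137255949, minus strand): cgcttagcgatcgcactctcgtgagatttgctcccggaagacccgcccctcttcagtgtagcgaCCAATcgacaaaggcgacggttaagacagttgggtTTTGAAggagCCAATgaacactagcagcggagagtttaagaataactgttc
Prc1 (chr1:143659331-143659480, plus strand): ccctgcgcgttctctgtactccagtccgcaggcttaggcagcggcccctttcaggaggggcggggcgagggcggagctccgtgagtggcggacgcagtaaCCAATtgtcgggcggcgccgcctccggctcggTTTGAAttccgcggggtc
Cenpa (chr6:31431553-31431702, minus strand): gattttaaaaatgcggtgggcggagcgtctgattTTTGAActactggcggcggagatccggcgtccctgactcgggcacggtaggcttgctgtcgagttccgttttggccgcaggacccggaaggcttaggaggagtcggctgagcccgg

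All 6 printed stretches hold a CHR match by this choice, while Melk, Aurka, Bub1 and Nuf2, among others, had no CHR or CCAAT match before the start. Counted back from the start, Cdk1 had CHR matches at -72 and -16 and CCAAT matches at -81 and -49 in the stretch shown. In Mki67 a CHR match at -99 shared 1 base with a CCAAT match at -94. Over the 250 bases before the start, TTTGAA or its reverse complement occurred in 10 of 26 members, against 15.0% of the 14564 tested genes with a window. CCAAT occurred in 19 of 26, against 36.2%. When the 50 bases after the start were added, TTTGAA occurred in 18 of 26, against 16.7%. The hypoxia response element cores were nearer to the background, ACGTG in 7 of 26 against 19.6% and GCGTG in 10 of 26 against 36%. Members called lower held TTTGAA before the start in 6 of 14 and the other members in 4 of 12. These matches describe letters in a window and were not tested as binding sites.

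Of 32 measured members, 18 fell, 14 were not called and 0 rose, where 11.5% of all genes tested were called lower and 8.68% higher. The median difference of the members was -0.63, against -0.005 over all genes. The 5 members that fell at least 2-fold were Ccna2, Mki67, Cdk1, Top2a and Ect2. The 14 members not called ranged from -0.73 (Bub1) to 0.09 (Foxm1). At an unadjusted p under 0.05, 27 of 32 were lower and 0 higher, where 5890 of the 18166 genes passed in either direction. When each array was centred on its median, 21 members were lower (11.9% of all genes), and over all genes 2161 were lower and 936 higher in place of 2098 and 1576. In bulk RNA, fewer dividing cells and less of these transcripts per dividing cell cannot be told apart.

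**Figure D1:**
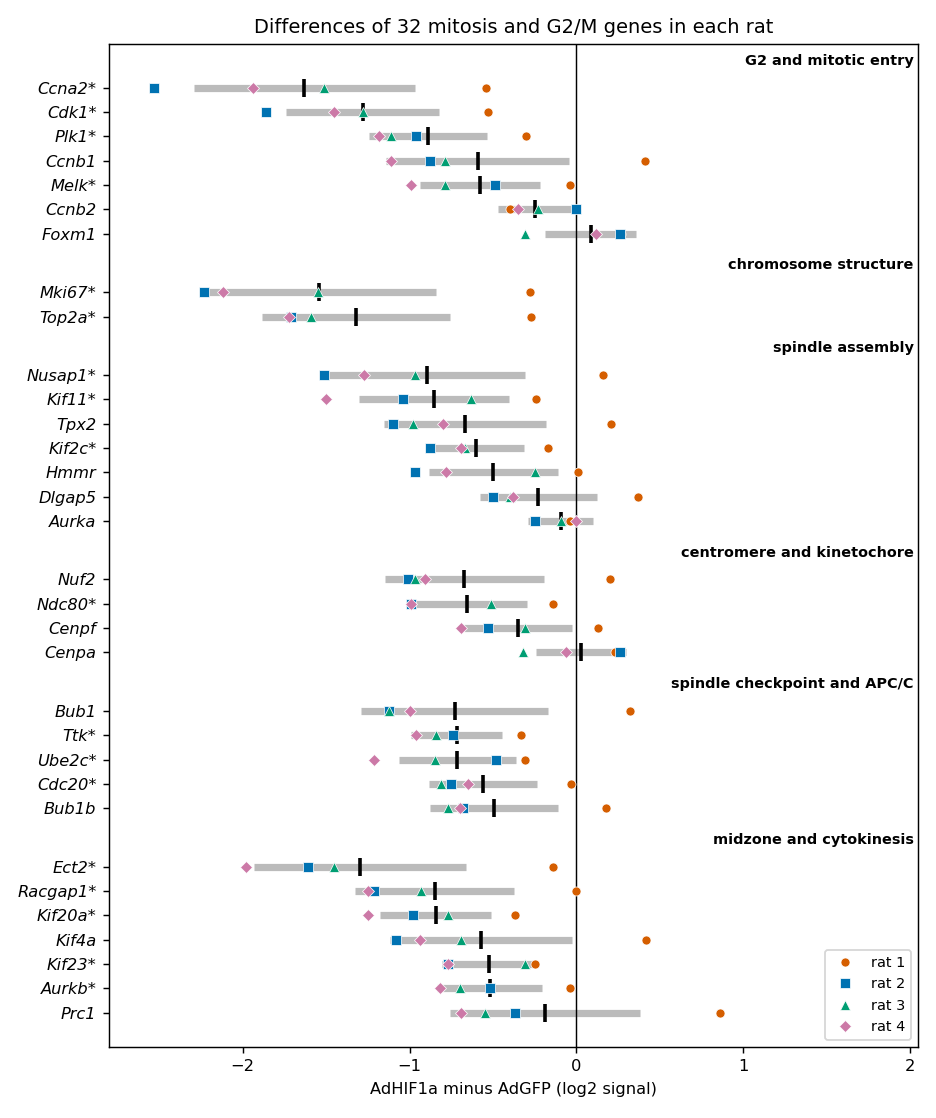
AdHIF1a minus AdGFP in log2 signal for the 32 measured members, ordered within role. Coloured points are the 4 rats, the black tick is their mean, the grey bar its 95% confidence interval from limma, and a star marks a call; the orange points of rat 1 lie to the right of the other 3 rats for most genes.

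The fall was not equal in the 4 rats. Median differences of the members were -0.04, -0.92, -0.78 and -0.95 in rats 1 to 4. Rat 1 had 18 of 32 members lower, 13 higher and 1 equal, whereas rats 2, 3 and 4 had 29, 32 and 30 lower. Over all genes, 49.1%, 49.5%, 54.3% and 50.4% were lower in rats 1 to 4. Each of the 18 called members had its smallest difference in rat 1, and so did 27 of all 32 members. The share over all genes was not computed for this count. In that rat Nusap1 was higher by 0.16 and Racgap1 equal in both wells, although both were called.

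Rat 1 stood apart in its control well. The median signal of the members was 5.63, 6.18, 6.23 and 6.69 with AdGFP, and 5.53, 5.15, 5.29 and 5.49 with AdHIF1a, for rats 1 to 4 in order. By this median the AdGFP well of rat 1 was above all 4 AdHIF1a wells and below the other AdGFP wells. By summed linear signal of the members it read 2141, within the 1775 to 2206 of the AdHIF1a wells. For 28 of 32 members the AdGFP well of rat 1 was the lowest of the 4 AdGFP wells. Over all genes it was the lowest for 33.2%. In the lists described below, it was the lowest for 82.6% of other mitosis genes, 95.1% of DNA replication genes and 57.4% of cell cycle regulators. The spread between rats was larger in the AdGFP wells for 31 of 32 members, against 43.8% of all genes. In those lists it was larger there for 75%, 85.4% and 48.9% of genes, in the same order. The median SD of the members was 0.43 in AdGFP and 0.19 in AdHIF1a. For 11 members the AdHIF1a mean lay below the median of all probe sets (5.09), whose lower quartile was 3.63.

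**Figure D2:**
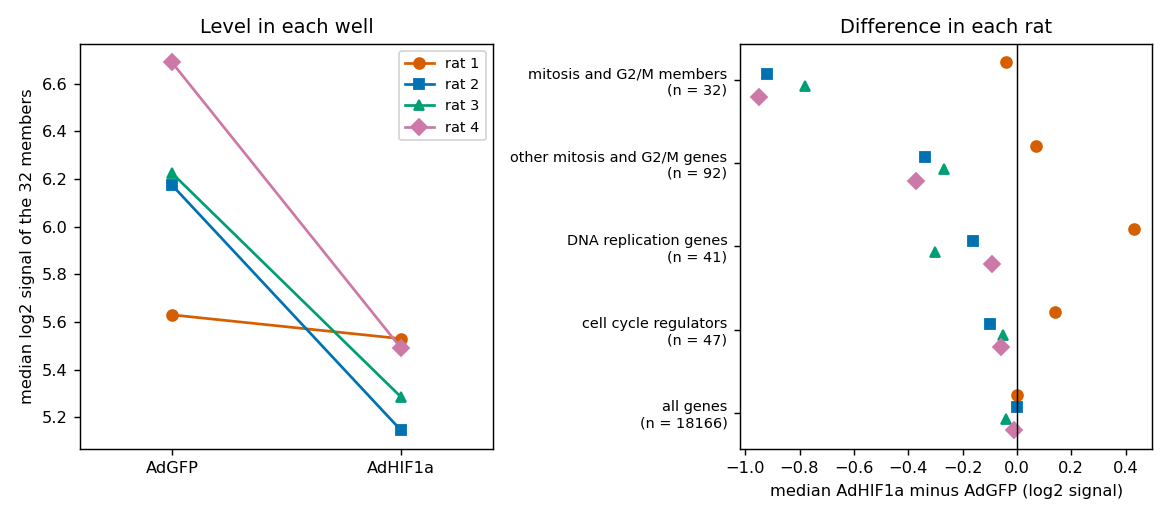
Left, the median log2 signal of the 32 members in each well, with lines joining the wells of a rat. Right, the median difference in each rat for the members and 4 other gene sets; the AdGFP wells span 5.63 to 6.69, the AdHIF1a wells 5.15 to 5.53, and rat 1 lies to the right of the other rats in the 4 cell cycle sets.

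How many members were called depended on the rats and on the variance estimate. Without rat 1, 28 of 32 were called lower, where 12.6% of all genes were, and the median difference was -0.85. Without rat 2, 3 or 4 the counts were 9, 8 and 8, against 6.97%, 8.39% and 6.58% of all genes. The limma fit shrinks each gene's variance toward a common value, estimated here from the 18166 genes. When that value was estimated from all 36685 probe sets instead, a choice added after the data were seen, 10 members were called lower, against 7.77% of all genes. These were Ccna2, Cdk1, Plk1, Mki67, Top2a, Kif2c, Ttk, Ube2c, Kif20a and Ect2. Quantile normalization left 15 members called (11.9% of all genes) and ended the calls of Melk, Nusap1 and Aurkb, and an adjusted p under 0.01 left 6 (5.97%). The other settings gave 17 without the rat as a block (10.8%), 18 with it as a random block (12.4%; Nuf2 in place of Aurkb), 26 with array weights (15.2%), 20 with a trended robust prior (12.8%) and 19 with the mean of all probe sets (11.5%). Filters on dim probe sets gave 18 at the lower quartile (14.5%) and 17 of 25 at the median (20.1%). With the prior from all probe sets and without rat 1, 24 were called, against 6.78% of all genes. Without rat 2, 3 or 4, 0 were called by limma, against 1.35%, 3.3% and 1.66%. At an unadjusted p under 0.05, 18, 14 and 15 members were then lower. The share over all genes was not computed, so these 3 counts cannot be set against a background. Ccna2, Cdk1, Plk1, Mki67, Top2a, Ttk and Kif20a were called in each leave-out under the first estimate.

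**Figure D3:**
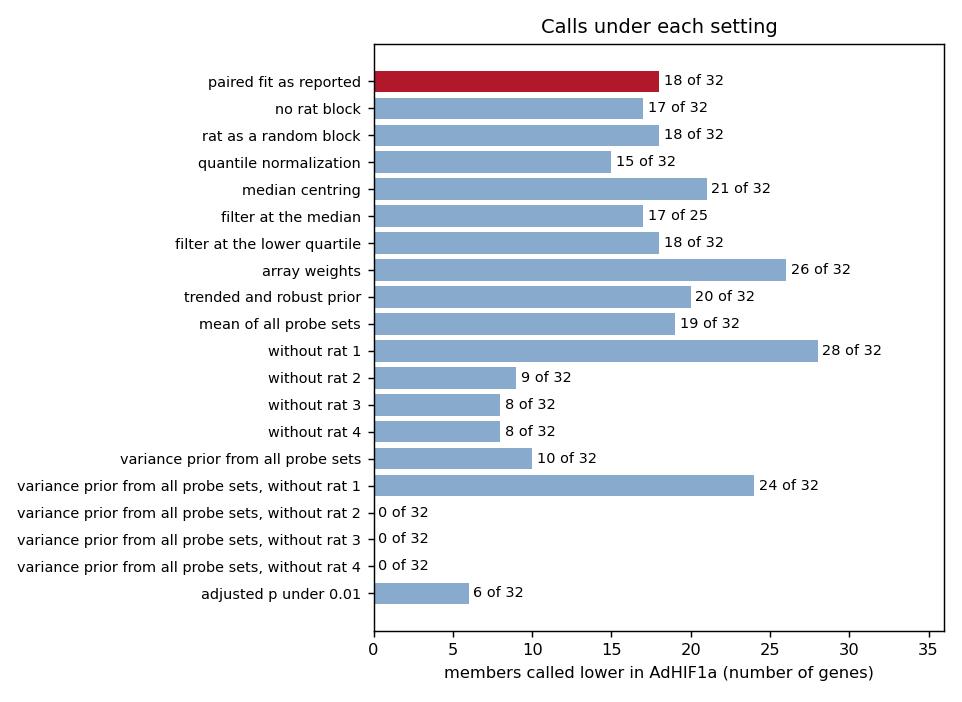
Number of the measured members called lower in AdHIF1a by limma under each setting, with the number tested beside each bar. The paired fit as reported (red) gave 18, leaving out rat 1 gave 28, and leaving out rat 2, 3 or 4 gave 9, 8 and 8, or 0 each when the variance prior came from all probe sets.

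Among 7 measured genes of mitotic entry, 4 fell, namely the cyclin gene Ccna2, its partner kinase Cdk1, the Polo kinase gene Plk1 and the kinase gene Melk. Ccna2, whose cyclin acts in S phase and G2, read 6.18, 7.54, 7.17 and 7.97 in AdGFP (values run from rat 1 to rat 4 throughout) and 5.64, 5.01, 5.66 and 6.03 in AdHIF1a. It fell by 1.63 ± 0.28, or 3.10-fold (95% interval 1.96 to 4.90, limma adjusted p = 0.00703). The lowest AdGFP well, that of rat 1, was above every AdHIF1a well.

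Cdk1, the kinase that drives entry into mitosis, read 5.23, 6.23, 6.20 and 6.33 in AdGFP and 4.70, 4.37, 4.92 and 4.88 in AdHIF1a. It fell by 1.28 ± 0.19 (limma adjusted p = 0.00431), and its groups did not overlap either. The AdHIF1a wells lay below the median of all probe sets (5.09). The difference was 2.43-fold (95% interval 1.77 to 3.34), and whether low signal compressed it was not tested. Plk1, which matures centrosomes and promotes entry and exit from mitosis, read 6.79, 7.24, 7.30 and 7.71 in AdGFP and 6.49, 6.28, 6.19 and 6.53 in AdHIF1a. It fell by 0.89 ± 0.15 (limma adjusted p = 0.00651), with every AdHIF1a well under every AdGFP well. Melk read 5.12, 5.63, 5.89 and 6.08 in AdGFP and 5.08, 5.14, 5.10 and 5.09 in AdHIF1a, and fell by 0.58 ± 0.15 (limma adjusted p = 0.0370). Its 4 AdHIF1a wells were nearly equal, and the AdGFP well of rat 1 lay among them. The Melk call was lost without rat 2, 3 or 4 (adjusted p = 0.0830 to 0.138) and with the prior from all probe sets (0.0878).

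The other entry genes did not pass. Foxm1, the transcription factor that activates many G2 and mitosis genes, read 6.73, 6.58, 7.03 and 7.01 in AdGFP and 7.0, 6.84, 6.72 and 7.13 in AdHIF1a. The groups overlapped and the difference was 0.09 ± 0.12 (95% interval -0.19 to 0.36, limma adjusted p = 0.673). Ccnb1 differed by -0.59 ± 0.23 (adjusted p = 0.127), with 0.41 in rat 1 and -0.88, -0.79 and -1.11 in rats 2 to 4, and it was called without rat 1. Ccnb2, the second B-type cyclin, differed by -0.25 ± 0.09 (adjusted p = 0.120). Its 2 probe sets gave unlike sizes, -0.25 on the brighter one (17853791) and -0.56 on the dimmer one (17627662), and the gene was called when both were averaged.

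**Figure D4:**
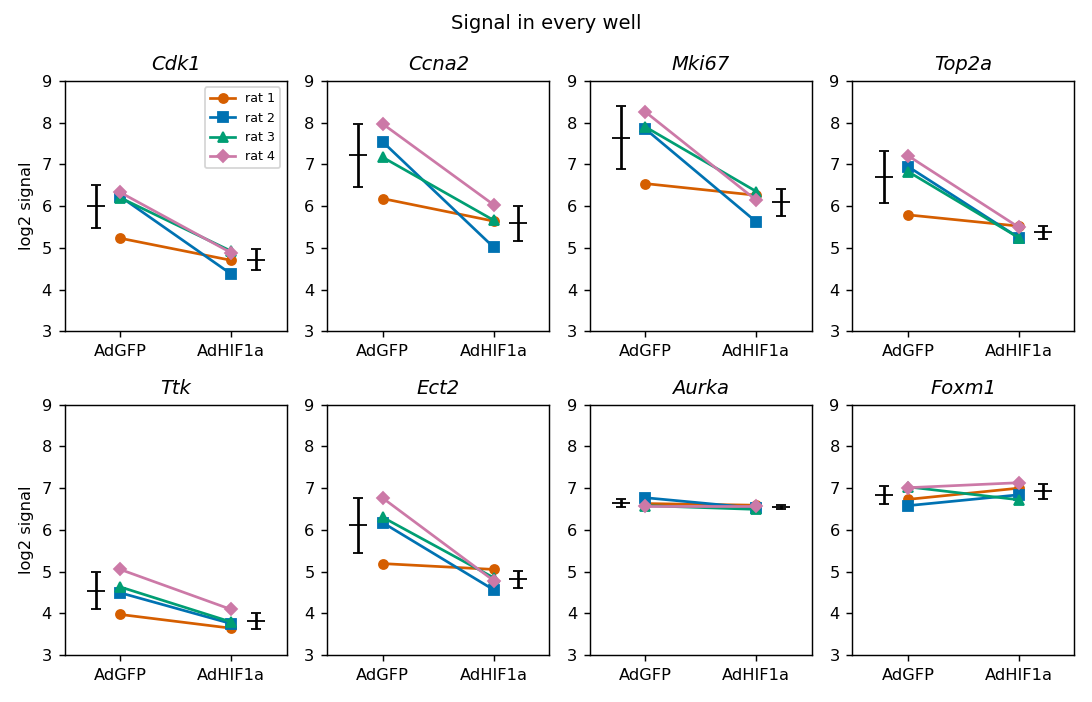
Log2 signal of 8 members in each well, with lines joining the 2 wells of a rat and black bars showing the mean and SD of each group (4 wells). In Cdk1, Ccna2, Mki67, Top2a and Ect2 the AdGFP well of rat 1 is the lowest of its group and all AdHIF1a wells lie below it, and in Ttk, Aurka and Foxm1 the groups overlap.

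Both chromosome genes fell. Mki67, the proliferation marker that coats mitotic chromosomes, read 6.54, 7.85, 7.90 and 8.26 in AdGFP and 6.26, 5.62, 6.35 and 6.14 in AdHIF1a. The difference was -1.55 ± 0.30, or 2.92-fold lower (95% interval 1.79 to 4.75, limma adjusted p = 0.0111). Top2a, the topoisomerase that untangles sister chromatids, read 5.79, 6.95, 6.83 and 7.21 in AdGFP and 5.52, 5.24, 5.24 and 5.49 in AdHIF1a, and fell by 1.32 ± 0.24 (adjusted p = 0.00851). In both genes the highest AdHIF1a well was below the lowest AdGFP well, by less than the spread among the AdGFP wells. Rat 1 contributed -0.28 and -0.27, and rats 2 to 4 between -1.55 and -2.23.

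Of 7 spindle assembly genes, 3 were called lower and 4 were not called. Kif11, the motor that pushes spindle poles apart, read 4.85, 5.53, 5.31 and 6.23 in AdGFP and 4.61, 4.49, 4.68 and 4.73 in AdHIF1a. It fell by 0.85 ± 0.19 (limma adjusted p = 0.0196) to below the median of all probe sets, with no overlap between groups. Nusap1, a microtubule-bundling protein, read 5.38, 6.08, 6.14 and 6.64 in AdGFP and 5.54, 4.57, 5.17 and 5.37 in AdHIF1a, and fell by 0.90 ± 0.25 (adjusted p = 0.0443). Its groups overlapped through rat 1, where the AdHIF1a well was the higher one. Kif2c, a motor that takes microtubules apart at kinetochores, read 4.37, 4.82, 4.70 and 4.95 in AdGFP and 4.20, 3.94, 4.03 and 4.26 in AdHIF1a, and fell by 0.60 ± 0.12 (adjusted p = 0.0139), with all wells below the median of all probe sets. Calls of these 3 genes were each lost without rat 2, 3 or 4 (adjusted p = 0.0522 to 0.155), and those of Kif11 and Nusap1 with the prior from all probe sets (0.0568 and 0.103).

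Aurka, the kinase of the spindle poles, had the smallest difference in this role. It read 6.63, 6.77, 6.58 and 6.58 in AdGFP and 6.59, 6.52, 6.49 and 6.58 in AdHIF1a, a difference of -0.10 ± 0.08 (95% interval -0.29 to 0.10, limma adjusted p = 0.491). The lower end of that interval is far short of the difference of Kif11, and the groups overlapped. Its activator Tpx2 differed by -0.67 ± 0.21 (adjusted p = 0.0639), the hyaluronan-mediated motility receptor gene Hmmr by -0.50 ± 0.17 (0.0790) and Dlgap5, which stabilises spindle fibres, by -0.23 ± 0.15 (0.354). These 3 genes were higher or level in rat 1 (0.21, 0.01 and 0.37) and lower in the other 3 rats, and each was called without rat 1.

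Of 4 measured centromere and kinetochore genes, 1 fell. Ndc80, part of the complex that grips microtubules, read 5.16, 5.94, 5.63 and 6.02 in AdGFP and 5.02, 4.95, 5.12 and 5.03 in AdHIF1a, and fell by 0.66 ± 0.15 (limma adjusted p = 0.0229). Its call was lost without rat 2, 3 or 4 (0.0618 to 0.0937) and with the prior from all probe sets (0.0620). Its partner Nuf2 read 5.48, 6.09, 6.16 and 6.39 in AdGFP and 5.68, 5.08, 5.19 and 5.48 in AdHIF1a, a difference of -0.67 ± 0.20 (adjusted p = 0.0580). The 2 subunits differed by almost the same amount on average, and in rat 1 they went opposite ways, at -0.14 for Ndc80 and 0.20 for Nuf2. Cenpf differed by -0.35 ± 0.14 (adjusted p = 0.126). Cenpa, the histone variant that marks centromeres, read 5.21, 5.33, 5.65 and 5.44 in AdGFP and 5.44, 5.59, 5.33 and 5.38 in AdHIF1a, with a difference of 0.03 ± 0.12 (95% interval -0.24 to 0.30, adjusted p = 0.902). Its sign differed between rats and turned with median centring or quantile normalization.

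Checkpoint and APC/C genes were lower for 3 of 5. Ttk, the kinase that starts the checkpoint signal, read 3.97, 4.49, 4.63 and 5.05 in AdGFP and 3.64, 3.75, 3.79 and 4.09 in AdHIF1a. It fell by 0.72 ± 0.12 (limma adjusted p = 0.00542), all wells being below the median of all probe sets, and the groups overlapped although every pair moved down. Ube2c, the ubiquitin-conjugating enzyme that works with the APC/C, read 6.19, 6.18, 6.79 and 7.08 in AdGFP and 5.88, 5.70, 5.94 and 5.87 in AdHIF1a, and fell by 0.71 ± 0.15 (adjusted p = 0.0154) with no overlap. Cdc20, the activator of the APC/C that the checkpoint restrains, read 7.68, 8.19, 8.19 and 8.57 in AdGFP and 7.65, 7.44, 7.38 and 7.92 in AdHIF1a, and fell by 0.56 ± 0.14 (adjusted p = 0.0285). The Cdc20 groups overlapped through the AdGFP well of rat 1. Its call was lost without rat 2, 3 or 4 (0.104 to 0.113), without the rat as a block (0.0593) and with the prior from all probe sets (0.0720), and that of Ube2c without rat 3 (0.0691).

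The checkpoint kinase genes Bub1 and Bub1b followed the others in 3 rats. Bub1 read 4.44, 5.75, 5.61 and 5.80 in AdGFP and 4.76, 4.63, 4.49 and 4.80 in AdHIF1a, a difference of -0.73 ± 0.24 (limma adjusted p = 0.0760). Bub1b read 4.28, 4.99, 4.90 and 5.27 in AdGFP and 4.46, 4.31, 4.13 and 4.57 in AdHIF1a, a difference of -0.49 ± 0.16 (adjusted p = 0.0792). The AdGFP well of rat 1 was below all AdHIF1a wells for Bub1 and among them for Bub1b, and both were called without rat 1.

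Genes of the midzone and of cytokinesis, the steps that part the daughter cells, were lower for 5 of 7. Ect2, which activates RhoA at the cell's equator, read 5.19, 6.17, 6.30 and 6.76 in AdGFP and 5.05, 4.56, 4.85 and 4.78 in AdHIF1a. It fell by 1.30 ± 0.27, or 2.45-fold (95% interval 1.58 to 3.81, limma adjusted p = 0.0149), to below the median of all probe sets. Kif20a, a motor that carries proteins to the midzone, read 5.78, 6.13, 6.25 and 6.74 in AdGFP and 5.41, 5.15, 5.48 and 5.49 in AdHIF1a, and fell by 0.84 ± 0.14 (adjusted p = 0.00635). Neither gene's groups overlapped. Kif23, the motor of the centralspindlin complex, read 7.92, 8.04, 8.06 and 8.15 in AdGFP and 7.67, 7.27, 7.75 and 7.38 in AdHIF1a, and fell by 0.53 ± 0.12 (adjusted p = 0.0203) with no overlap. It was the 1 member whose AdHIF1a wells spread more than its AdGFP wells.

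Racgap1, the other centralspindlin subunit, read 5.38, 6.35, 6.14 and 6.76 in AdGFP and 5.38, 5.14, 5.21 and 5.51 in AdHIF1a, and fell by 0.85 ± 0.20 (limma adjusted p = 0.0256), entirely through rats 2 to 4. Aurkb, the kinase of the chromosomal passenger complex, read 5.95, 6.37, 6.77 and 7.04 in AdGFP and 5.91, 5.85, 6.07 and 6.22 in AdHIF1a, and fell by 0.52 ± 0.13 (adjusted p = 0.0331). Aurkb was lower in each rat, from -0.04 in rat 1 to -0.82 in rat 4. Aurka differed by -0.04, -0.25, -0.09 and 0 in rats 1 to 4, and the difference between the 2 kinase genes was not tested. The Aurkb call was also lost without the rat as a block (adjusted p = 0.117) and with it as a random block (0.0748). Without rat 2, 3 or 4, calls were lost for Racgap1 and Aurkb, for Kif23 without rat 2 or 4, and for Ect2 without rat 3 or 4 (0.0562 to 0.132 in all), and with the prior from all probe sets for Racgap1, Aurkb and Kif23 (0.0553 to 0.0796).

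Prc1, which bundles midzone microtubules, read 7.08, 7.91, 7.84 and 8.39 in AdGFP and 7.94, 7.54, 7.29 and 7.70 in AdHIF1a. It was 0.86 higher in rat 1, the largest rise of any member in any rat, and 0.37 to 0.69 lower in the others, and its mean difference was -0.19 ± 0.24 (95% interval -0.76 to 0.38, limma adjusted p = 0.655). Kif4a, a chromosome-bound motor, differed by -0.57 ± 0.23 (adjusted p = 0.138), with 0.42 in rat 1. Both were called without rat 1.

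Over all members, 12 had every AdHIF1a well below every AdGFP well, against 12.2% of all genes, and 0 had the reverse, against 10.3%. They were Ccna2, Cdk1, Plk1, Mki67, Top2a, Kif11, Kif2c, Ndc80, Ube2c, Kif20a, Kif23 and Ect2. Every rat was lower for 16 members, against 20.4% of all genes.

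A further list of mitosis and G2 genes outside the members held 92 measured genes. Of these, 25 were lower and 4 higher, where 11.5% of all genes were lower and 8.68% higher. The median difference of this list was -0.21, and 0.07, -0.34, -0.27 and -0.37 in rats 1 to 4. Iqgap3, a scaffold protein gene, fell by 0.71 ± 0.10 (limma adjusted p = 0.00303), and was nearly as much lower in rat 1 (-0.65) as in the others. Cdca3, a trigger of mitotic entry, fell by 1.25 ± 0.18, the kinetochore scaffold gene Knl1 by 1.06 ± 0.17, the mitotic kinase gene Pbk by 1.24 ± 0.20, the spindle protein gene Spag5 by 0.59 ± 0.09 and Pttg1, which encodes securin, by 0.53 ± 0.09 (adjusted p = 0.00359 to 0.00570). Higher were Ncapg (0.97 ± 0.22, limma adjusted p = 0.0207) and Ncapd2 (0.39 ± 0.09, 0.0205), subunits of condensin. So were Wee1, the kinase that restrains Cdk1 (0.44 ± 0.12, 0.0363), and Bora, an activator of Aurka (0.33 ± 0.09, 0.0477). The rise of Wee1 was 0.03 in rat 3. Ncapd2, Wee1 and Bora fall outside the naming rule and were named after their values were seen. The call of Ncapg was lost without rat 3 (0.0631). With no block, with median centring, or without rat 2, 3 or 4, 1 gene of the list was higher in each case. With the prior from all probe sets 14 of the list were lower and 0 higher, against 7.77% and 5.68% of all genes.

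Regulators of the cell cycle went both ways, with 8 of 47 lower and 7 higher, and a median difference of -0.08, where 11.5% of all genes were lower and 8.68% higher. Cdkn1b, which encodes the inhibitor p27, rose by 1.13 ± 0.09 (limma adjusted p = 0.000285), by 1.31, 1.03, 1.04 and 1.13 in rats 1 to 4. Its largest difference was in rat 1. Cdkn2b, which encodes the inhibitor p15, fell by 1.87 ± 0.21, the E2F partner gene Tfdp2 fell by 0.77 ± 0.10 and Ccng2, an atypical cyclin gene, rose by 0.64 ± 0.10 (adjusted p = 0.00120 to 0.00433). Of 41 DNA replication genes, 5 were lower and 2 higher. The share of lower genes was near that of all genes (11.5%) and that of higher genes below theirs (8.68%). Median differences were 0.43, -0.16, -0.30 and -0.09 in rats 1 to 4. Without rat 1, 14 of the 41 were lower and 2 higher, against 12.6% and 8.36% of all genes. Rrm2, a ribonucleotide reductase subunit, fell by 1.88 ± 0.31, Dtl, which marks replication factors for destruction, by 1.27 ± 0.21 and the checkpoint adaptor gene Clspn by 0.69 ± 0.12, while the origin licensing gene Cdc6 rose by 1.85 ± 0.33 (adjusted p = 0.00610 to 0.00834). The rise of Cdc6 was largest in rat 1, at 3.28 against 0.97 to 1.69 in the others.

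Markers of ATII cells were high in all wells, with summed linear signals of 22070 to 27925 in AdGFP and 20877 to 26641 in AdHIF1a for 10 measured genes. Of these, 3 surfactant protein genes (Sftpc, Sftpb and Sftpa1) were higher and 6 genes lower. For this and the other marker counts, 11.5% of all genes were lower and 8.68% higher. Macrophage markers had 5 of 16 genes lower (Mrc1, Csf1r, Adgre1, Siglec1 and Fcgr1a) and 0 higher by limma, with sums of 8705 to 10967 in AdGFP and 9357 to 12526 in AdHIF1a. Their median differences were -0.59, 0.01, -0.12 and -0.11 in rats 1 to 4, most negative in rat 1. Medians were also most negative in rat 1 for lymphocyte markers (-0.41, -0.04, -0.235 and -0.165) and club cell markers (-0.145, 0.1, 0.17 and 0.12). Those of ATII, fibroblast, endothelial and ciliated cell markers were not. Fibroblast markers had 0 of 9 called (0 at an unadjusted p under 0.05), with sums of 243 to 259 and 226 to 251. Endothelial markers had 1 of 7 higher (Plvap), with sums of 154 to 171 and 201 to 222. Lymphocyte markers had 0 of 8 called (3 at an unadjusted p under 0.05), with sums of 271 to 355 and 237 to 272. Ciliated cell markers had 2 of 5 lower (Tekt1 and Ccdc39), with sums of 177 to 223 and 136 to 158. Club cell markers had 0 of 4 called (0 at an unadjusted p under 0.05), with sums of 6378 to 7304 and 5859 to 8123. Sums give most weight to the brightest genes of a set, which for macrophages was Lyz2 and for club cells Scgb1a1. In AdGFP and AdHIF1a, log2 means were 12.6 and 12.9 for Lyz2, 12.6 and 12.7 for Scgb1a1, and 4.9 and 6.2 for Plvap. No marker was at 0 on this scale, and the means of 7 of the 9 fibroblast genes lay below the median of all probe sets in both groups. The part of other cells in the difference of the mitosis genes was not tested.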

How the data were processed

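RNA of 8 wells was measured on Affymetrix arrays. The authors deposited 1 log2 signal per probe set, made with Affymetrix Expression Console per the submitters' processing notes. The version, algorithm and genome build were not given in the sources used here. Values ran from 1.42 to 13.57, with array medians of 5.00 to 5.20, so a change shared by every transcript could not show, and the number of arrays limits precision. Of 36685 probe sets, 18511 carried 1 symbol, 575 several and 17599 none, which left 18166 genes. No dim probe set was removed and no detection calls were used. limma 3.58.1 (R 4.3.3; lmFit, eBayes) was fitted with the rat as a block, as in the series' design. As a check of the pairing, deviations from the group means correlated over genes at 0.18 to 0.27 within a rat and at -0.22 to 0.08 between rats. P-values are two-sided, and the fit was tested on simulated data. The arrays were not duplicates of one another (at most 1.95% of values equal).

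The members and lists were chosen with earlier results of these data known. Values in every well are given for members called, for the largest and smallest difference in each role and for the 3 members highest in the order of differences (2 positive, and Aurka at -0.10). In the other lists the called genes with the smallest adjusted p (6 of the mitosis list, 4 of each other list) and the largest increase and decrease of the mitosis list are named. Alternatives were no block, a random block, quantile normalization, median centring, filters at the median and lower quartile, array weights, a trended robust prior, the mean of all probe sets, an adjusted p under 0.01, a prior from all probe sets and leaving out each rat.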

Additional observations from a re-analysis of the deposited data

Results flagged for a closer look

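Among 141 sets of 4 values (both groups' signals and the 4 rat differences of each named gene), 12 held a value that stood far from the other 3 by Dixon's criterion, where chance alone gives about 1 in 20. All 12 were values of rat 1. Its AdGFP well was the low one for Cdk1 (5.23 against 6.20 to 6.33), Tpx2 (5.92 against 6.96 to 7.10), Bub1 (4.44 against 5.61 to 5.80) and the replication gene Rrm2 (6.31 against 8.05 to 8.29). Its AdHIF1a well was the high one for Ncapg (6.74 against 6.10 to 6.17). Its difference was the least negative or the only positive one for Top2a (-0.27 against -1.72 to -1.59), Knl1 (-0.37 against -1.35 to -1.19), Dtl (-0.35 against -1.64 to -1.49), Dlgap5 (0.37 against -0.50 to -0.38), Nuf2 (0.20 against -1.01 to -0.91), Bub1 (0.32 against -1.12 to -1.0) and Bub1b (0.18 against -0.77 to -0.68). These genes share the same wells, so the 12 values are not independent.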

How the results depend on the processing

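The median difference of the members kept its sign in every setting run (-0.85 to -0.54 when 1 rat was left out), and no setting called a member higher. Only 4 rats, no detection calls and AdHIF1a means below the median of all probe sets for 11 members limit the sizes. Counts of members lower rose without rat 1 and fell without each other rat; the causes were not tested. Ranges without 1 rat were 8 to 28 for members lower, 14 to 42 and 1 to 2 for the other mitosis genes lower and higher, 2 to 12 and 6 to 7 for regulators, 3 to 14 and 1 to 2 for replication genes, and 1196 to 2284 and 921 to 1519 for all genes. With the variance prior from all probe sets, chosen after seeing the data, the counts were 10 members lower, 14 and 0 other mitosis genes, 2 and 4 regulators, 3 and 1 replication genes, and 1411 and 1032 of all genes. With that prior and 1 rat left out they ranged from 0 to 24 members, 0 to 21 and 0 to 1 other mitosis genes, 0 to 5 and 1 to 5 regulators, 0 to 8 and 0 to 1 replication genes, while all genes gave 1231, 246, 600 and 301 lower and 775, 315, 517 and 324 higher without rats 1 to 4. At an adjusted p under 0.01 they were 6 members, 10 and 0 other mitosis genes, 2 and 4 regulators, 3 and 1 replication genes, and 1084 and 794 of all genes. Array weights gave 26 members, 41 other mitosis genes and 9 replication genes lower, and the trended robust prior gave 11 regulators higher. Without the replicate block, 17 members were lower (16 of the 18 and Nuf2), with 20 and 1 other mitosis genes, 6 and 5 regulators, 4 and 1 replication genes, and 1955 and 1497 of all genes. With a random block 2 other mitosis genes were higher, with quantile normalization 2, and with median centring 1, with 1 replication gene and 936 of all genes higher (2161 lower). Median centring moved the median of all genes from -0.005 to -0.09. Counts of members under the settings not named here lay within 1.5 times 18. The sign of Cenpa turned to -0.06 with quantile normalization (-0.057) and median centring (-0.055), to -0.04 without rat 1 and to -0.05 without rat 2, under either prior, and it was 0.14 without rat 3.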
